A study of Mus musculus with 4 samples.

Results

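Keratins are the intermediate filament proteins of epithelial cells, and 8 of the 10 keratin genes named for the thymic epithelium had a row among the 10598 genes of the deposited table: Krt5, Krt14, Krt15, Krt17, Krt8, Krt18, Krt7 and Krt10. They were chosen by symbol, not by value. Krt19 and Krt79 were not analysed here. Of the other keratin genes, Krt16, Krt6a and Krt6b also had rows and are described beside the 8. All 11 passed the filter on low genes, a mean of 10 normalised counts.

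The study asked how loss of Camk2g, the gene for a calcium-activated protein kinase, alters the mouse thymus with and without T-cell lymphoma induced by N-methyl-N-nitrosourea (MNU), an alkylating mutagen. The 4 groups were wild-type C57BL/6J mice given vehicle, wild-type C57BL/6J mice given MNU, Camk2g-/- (CAMKIIγ-/-) mice of the C57BL/6J strain given vehicle, and Camk2g-/- mice given MNU, with a labelled treatment time of 6 months in every group. They are called vehicle wild type, MNU wild type, vehicle knockout and MNU knockout below. MNU was a single intraperitoneal dose of 75 mg/kg, given when the mice were 4 to 5 weeks old, and whole thymus was sequenced. Each group had 1 library, and whether a library came from 1 animal or from a pool is not given in the labels, so no difference below has a replicate check and no p-value was computed.

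Keratins assemble as pairs of a type I and a type II chain. Krt5 (type II) and Krt14 (type I) form the filaments of basal cells in stratified epithelia, and in the thymus they mark mainly the medullary epithelium, which displays self-antigens to maturing T cells. Krt8 (type II) and Krt18 (type I) form the filaments of simple epithelia and mark mainly the cortical epithelium, which supports and positively selects immature thymocytes.

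The 4 libraries had similar totals, from 32911362 to 34836257 normalised counts. Camk2g, the deleted gene, was at 2749 and 3173 in the vehicle and MNU wild type, at 489 in the vehicle knockout and at 29.7 in the MNU knockout. The vehicle knockout also held transcripts that were otherwise high in the MNU wild type. For 42 genes that in the MNU wild type exceeded both the vehicle wild type and the MNU knockout by more than 20-fold, the vehicle knockout reached a median of 15.4% of the MNU wild-type level, both taken above the mean of the other 2 libraries (5th to 95th percentile 13.9% to 18.5%). Counts, medians and fold differences that rest on this library are therefore given with and without that share subtracted, and levels and likeness are given as deposited. The subtraction multiplied keratins that were near 0 in the MNU wild type by about 1.18 in the vehicle knockout. In whole tissue, fewer epithelial cells and less keratin RNA per cell cannot be told apart.

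The bases around the start sites of Krt5, Krt8, Krt18 and Krt10 are shown because these genes stand for the basal pair, for the simple pair, whose genes lie close together on chromosome 15, and for the 1 keratin that was not lower in the MNU wild type. Each runs 5′ to 3′ on the gene's own strand from 250 bases before the RefSeq start site to 20 after it, in build GRCm38.p6, and the capitals mark matches on either strand to any of 4 motifs. These are the letters TATAAA of a box that many promoters share, the letters TGANTCA of AP-1, the letters GCCNNNGGC of AP-2 and the letters GGGCGG of Sp1. The sequences are Krt5 at chr15:101712886-101713155 (minus strand), Krt8 at chr15:102004323-102004592 (minus strand), Krt18 at chr15:102027966-102028235 (plus strand) and Krt10 at chr11:99389345-99389614 (minus strand).
Krt5: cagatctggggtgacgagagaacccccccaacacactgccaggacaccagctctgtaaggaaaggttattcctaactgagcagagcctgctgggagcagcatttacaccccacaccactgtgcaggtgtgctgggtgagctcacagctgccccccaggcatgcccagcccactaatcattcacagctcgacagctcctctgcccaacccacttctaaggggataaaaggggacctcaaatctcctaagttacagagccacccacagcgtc
Krt8: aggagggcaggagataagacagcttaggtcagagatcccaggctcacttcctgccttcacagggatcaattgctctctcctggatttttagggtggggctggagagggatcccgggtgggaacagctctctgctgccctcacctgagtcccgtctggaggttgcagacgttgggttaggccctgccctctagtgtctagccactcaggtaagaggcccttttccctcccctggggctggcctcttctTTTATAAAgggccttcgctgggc
Krt18: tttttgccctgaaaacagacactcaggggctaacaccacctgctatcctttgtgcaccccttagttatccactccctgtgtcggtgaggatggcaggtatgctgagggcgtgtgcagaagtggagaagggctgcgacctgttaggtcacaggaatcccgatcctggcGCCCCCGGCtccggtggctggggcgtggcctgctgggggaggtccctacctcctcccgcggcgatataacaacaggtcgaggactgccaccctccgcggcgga
Krt10: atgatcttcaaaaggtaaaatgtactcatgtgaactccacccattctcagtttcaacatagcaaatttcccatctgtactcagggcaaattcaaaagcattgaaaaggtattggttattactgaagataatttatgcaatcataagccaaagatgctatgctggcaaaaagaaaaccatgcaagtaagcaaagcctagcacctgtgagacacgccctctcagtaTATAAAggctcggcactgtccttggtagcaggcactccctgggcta
The Krt5 window held none of the 4 motifs. TATAAA was matched in the Krt8 window, by overlapping matches on both strands across the annotated start site, and in the Krt10 window 26 bases before it. The Krt18 window held 1 match to GCCNNNGGC. Among 32851 RefSeq windows of this length, 12.9% held TATAAA, 14.8% held GCCNNNGGC, 7.23% held TGANTCA and 34.1% held GGGCGG. The Krt18 window held 15 CpG dinucleotides, against 4 for Krt8, 3 for Krt5, 2 for Krt10 and a median of 6 over all windows. Windows were found for 6 of the 8 keratins. A match is a description of the sequence and not evidence of a bound factor.

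In the MNU wild-type thymus the keratins of both the basal and the simple pair were near 0, and Krt10 was not lower. Krt5 stood at 10373 normalised counts without and 7.33 with MNU, and Krt8 at 10813 and 27.8. A gene was counted as lower or higher at a difference of at least 2-fold in log2(normalised counts + 10), a scale that understates the difference of low genes. On that rule 7 of the 8 keratins were lower and 0 higher, against 14.2% of 10587 genes lower and 7.14% higher. The median log2 difference of the 8 was -7.53, and that of all genes was -0.01.

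**Figure D1:**
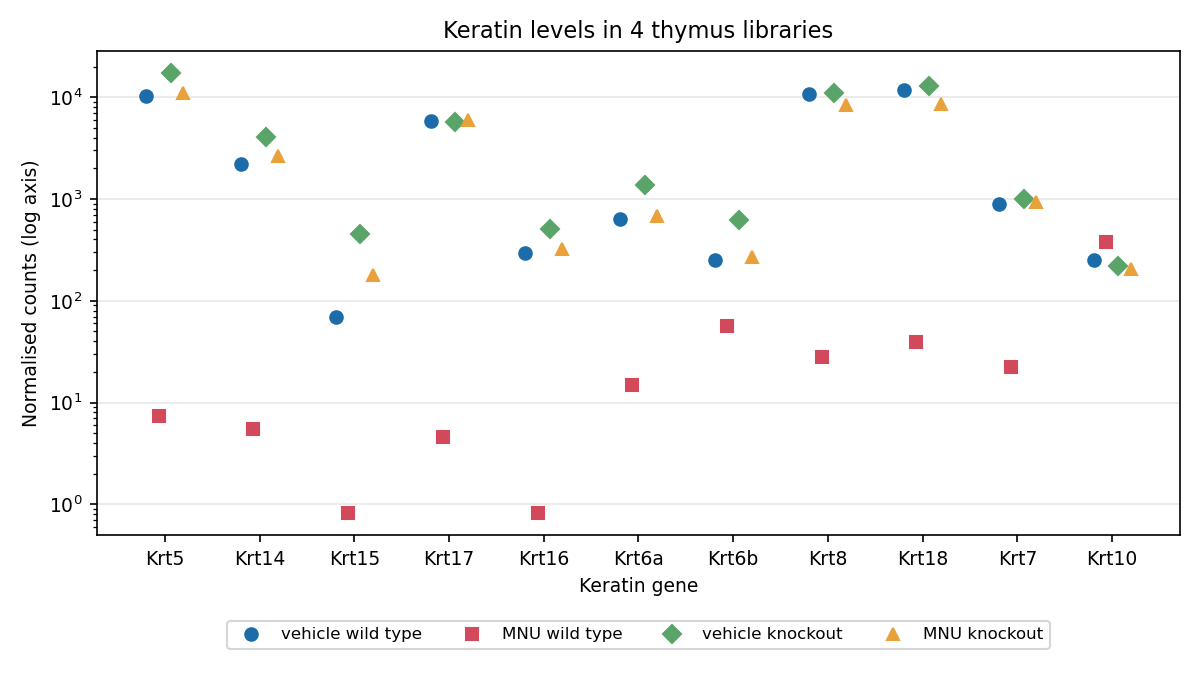
Normalised counts of 11 keratin genes (log axis) in the 4 thymus libraries, 1 point per library. The MNU wild type lies below the other libraries for each keratin except Krt10, where it is the highest at 379, and the vehicle knockout lies above the vehicle wild type by 1.67-fold for Krt5 and 6.58-fold for Krt15.

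Among the keratins of basal cells, the partners Krt5 and Krt14 were low in the MNU wild type. Krt14 stood at 2217 in the vehicle wild type, 5.47 in the MNU wild type, 4105 in the vehicle knockout and 2641 in the MNU knockout. Krt5 stood at 17368 and 10977 in the knockout libraries without and with MNU. For both genes the highest library was the vehicle knockout, and the other knockout library lay near the vehicle wild type. Without MNU, Krt5 was 1.67-fold and Krt14 1.85-fold higher in knockout than in wild type. With the share subtracted these ratios were 1.98 and 2.19.

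Krt15, a type I keratin of basal cells and of some epithelial stem cells, was the least abundant of the 11 per kilobase of transcript in the vehicle wild type, at 40.8. It stood at 69.4 normalised counts in the vehicle wild type, 0.82 in the MNU wild type, 456 in the vehicle knockout and 179 in the MNU knockout. Both knockout libraries were thus above both wild-type libraries. The vehicle knockout was 6.58-fold above the vehicle wild type, or 7.77-fold with the share subtracted, and the MNU knockout 2.58-fold above it. The value of 0.82 is the lowest above 0 in the MNU wild-type library, and no fold difference against it is given.

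Krt17, a type I keratin known for its induction in wounded and stressed epithelia, had the flattest profile of the abundant keratins outside the MNU wild type. It stood at 5838 in the vehicle wild type, 5758 in the vehicle knockout and 5953 in the MNU knockout, and at 4.54 in the MNU wild type. The log2 difference was 0.05 for MNU in knockout and -0.02 for genotype without MNU, and neither passed the 2-fold rule. These differences were -0.19 and 0.22 once the share was subtracted.

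Krt6a, Krt6b and Krt16 are the keratins of activated and wound-edge epithelium, where Krt16 is a type I partner of the Krt6 chains. Krt6a stood at 630 in the vehicle wild type, 14.8 in the MNU wild type, 1387 in the vehicle knockout and 673 in the MNU knockout. Krt6b stood at 250, 56.6, 627 and 269 in the same order, and Krt16 at 294, 0.82, 504 and 322. For all 3 the vehicle knockout was the highest and the MNU knockout lay close to the vehicle wild type. Krt6a and Krt6b are near-identical copies: of the 50-base windows in the Krt6a transcript, 43.6% were also in Krt6b, so their separate values are uncertain. Their sum stood at 880, 71.3, 2014 and 942. Krt16 shared 12.4% of its windows with Krt14, and Krt5 shared 6.98% with Krt6a.

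The simple keratins Krt8 and Krt18 differed little between the vehicle libraries. Krt8 was at 10868 in the vehicle knockout against 10813 in the vehicle wild type, a ratio of 1.01, and Krt18 at 12771 against 11677, a ratio of 1.09. With the share subtracted the ratios were 1.19 and 1.29. With MNU the knockout library held 8401 of Krt8 and 8660 of Krt18, whereas wild type held 27.8 and 38.9. The MNU knockout was thus the lowest of the 3 libraries with abundant keratin, with Krt8 1.29-fold and Krt18 1.35-fold below the vehicle wild type.

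Krt7, a type II keratin of ductal and glandular epithelia, was low in the MNU wild type but less so than the abundant keratins. It stood at 899 in the vehicle wild type, 22.2 in the MNU wild type, 993 in the vehicle knockout and 937 in the MNU knockout, so that 2.47% of its wild-type level was left with MNU. The corresponding percentages were 0.071 for Krt5, 0.078 for Krt17, 0.25 for Krt14, 0.26 for Krt8 and 0.33 for Krt18. Of the 11 keratins 10 were lower, against 14.2% of all genes. Among those Krt6b kept the largest share, 22.6%, but the separate values of Krt6a and Krt6b are uncertain. The sum of Krt6a and Krt6b was 880 in the vehicle wild type and 71.3 in the MNU wild type.

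Krt10, a type I keratin of suprabasal cells in stratified epithelia, went against the rest. It stood at 252 in the vehicle wild type, 379 in the MNU wild type, 222 in the vehicle knockout and 205 in the MNU knockout. The MNU wild type was the highest library, 1.51-fold above the vehicle wild type and within the 2-fold rule. Krt10 made up 78.0% of the summed normalised counts of the 8 keratins in the MNU wild type and 0.60% in the vehicle wild type.

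**Figure D2:**
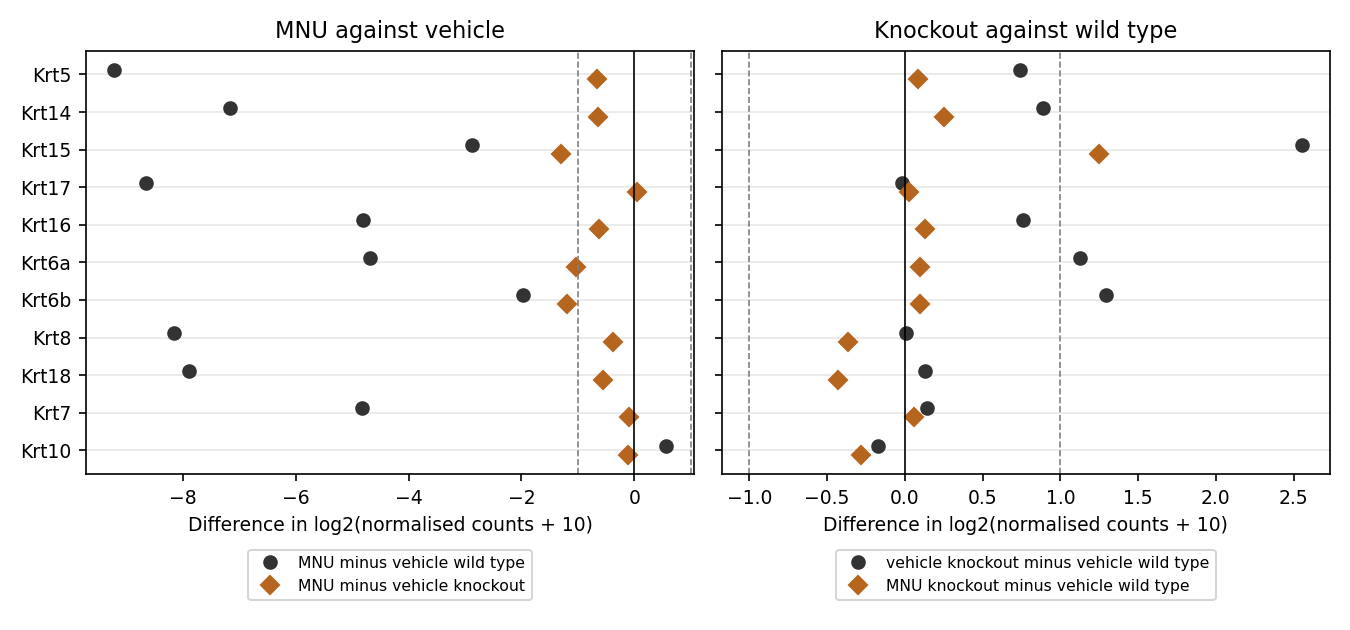
Difference in log2(normalised counts + 10) for each keratin, by MNU within each genotype (left) and of knockout libraries against the vehicle wild type (right), with dashed lines at 2-fold and 1 value per point. In wild type the MNU differences run from -9.23 for Krt5 to 0.57 for Krt10, and in the knockout from -1.30 for Krt15 to 0.05 for Krt17.

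Between the knockout libraries the keratins differed far less by MNU than between the wild-type libraries. At the 2-fold rule 1 of the 8 keratins, Krt15, was lower with MNU and 0 were higher, against 2.95% of all genes lower and 0.331% higher. The median log2 difference of the 8 was -0.47, and that of all genes was 0.01. Of the other keratins, Krt6a and Krt6b were also lower, by 2.06-fold and 2.34-fold, or by 2.43-fold and 2.72-fold with the share subtracted. With the share subtracted the median of the 8 was -0.71, with the same count of 1 lower, and the median of all genes was 0.04. The percentage of all genes lower after the subtraction was not computed. With the vehicle wild type as the control instead, the median of the 8 was 0.04, and 0 were lower and 1, Krt15, was higher, where 1.11% of all genes were lower and 1.57% higher. The difference of the MNU differences, knockout minus wild type in log2, was 8.57 for Krt5, 7.79 for Krt8, 7.34 for Krt18 and -0.68 for Krt10. It was 8.32, 7.55, 7.10 and -0.49 for the same genes after subtraction of the share. It has no test.

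Between the vehicle libraries, Krt15, Krt6a and Krt6b were at least 2-fold higher in the knockout, and the other 8 keratins were within 2-fold. At the 2-fold rule 1 of the 8 keratins, Krt15, was higher and 0 were lower, against 2.59% of all genes higher and 0.359% lower, and the median log2 difference was 0.14. Krt6a and Krt6b passed the rule as well, at 2.20-fold and 2.51-fold, or 2.60-fold and 2.93-fold with the share subtracted. Krt16, at 1.72-fold, or 2.03-fold with the share subtracted, had log2 differences of 0.76 and 0.997 and did not pass the rule. With the share subtracted 2 of the 8 passed it, Krt15 and Krt14, and the median was 0.37, against -0.03 for all genes. The percentage of all genes passing after the subtraction was not computed.

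With MNU, 7 of the 8 keratins were at least 2-fold higher in knockout than in wild type and 0 lower, against 15.0% of all genes higher and 7.37% lower. The median log2 difference was 7.44. Krt5 was 1497-fold, Krt17 1311-fold and Krt14 483-fold higher by the ratio of normalised counts, each against a wild-type value under 10. This comparison shares its knockout library with the MNU comparison in the knockout and its wild-type library with the MNU comparison in wild type.

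The ratio within each keratin pair varied less between the 3 libraries with abundant keratin than the ratio between the pairs. Krt5 over Krt14 was 4.68 in the vehicle wild type, 4.23 in the vehicle knockout and 4.16 in the MNU knockout. Krt8 over Krt18 was 0.93, 0.85 and 0.97 in the same order. The sum of Krt5 and Krt14 was 0.56 of the sum of Krt8 and Krt18 in the vehicle wild type, 0.91 in the vehicle knockout and 0.80 in the MNU knockout. Both knockout libraries were thus above the vehicle wild type in this ratio, by 1.62-fold and 1.43-fold. Subtracting the share left the first of these at 1.62. In the MNU wild type the ratio was 0.19, from sums of 12.8 and 66.7.

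**Figure D3:**
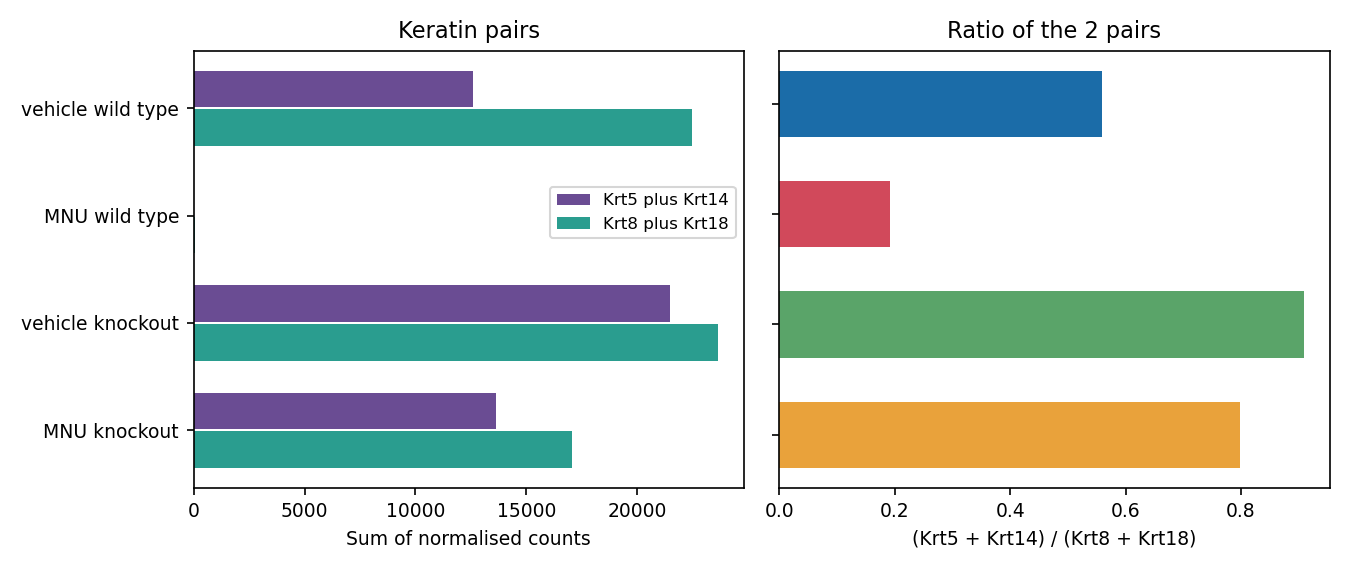
Summed normalised counts of Krt5 plus Krt14 and of Krt8 plus Krt18 (left, bars from 0) and the ratio of the first sum to the second (right) in each of the 4 libraries. The ratio is 0.56 in the vehicle wild type against 0.91 and 0.80 in the knockout libraries, and the sums in the MNU wild type are too small to see on the left.

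Per kilobase of the principal transcript, Krt18 was the most abundant keratin in the 3 libraries other than the MNU wild type, at 8126 normalised counts per kilobase in the vehicle wild type, 8887 in the vehicle knockout and 6026 in the MNU knockout. The next place differed. Krt8 held it in the vehicle wild type, at 5522 against 4722 for Krt5, and Krt5 held it in both knockout libraries, at 7905 against 5551 for Krt8 without MNU and 4996 against 4290 with MNU. Krt17 and then Krt14 followed these 3 genes in each of those libraries, at 3764 and 1306 per kilobase in the vehicle wild type. In the MNU wild type, Krt10 came first, at 181 per kilobase, ahead of Krt18 at 27.1. With 1 library per group there is no spread against which neighbours in these orders could be told apart.

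The profiles closest to those of Krt5 and Krt8 included genes known from thymic epithelium. Likeness was the root mean square distance of log2(normalised counts + 10) over the 4 libraries after centring each gene, and each of the genes nearest by it was under 20 normalised counts in the MNU wild type. Keratins were left out of the ranking. The 5 genes outside the keratins that lay nearest to Krt5 were Fcgbp (0.25), Tbata (0.26), Prss16 (0.45), Pax1 (0.59) and Crip3 (0.67), and the 5 nearest to Krt8 in the same way were Crip3 (0.06), Pax1 (0.12), Dsp (0.14), Psmb11 (0.25) and Pkp1 (0.28). Among the keratins, Krt18 lay 0.13 from Krt8, Krt17 0.31 and Krt14 0.38. From Krt5, Krt17 lay 0.47, Krt8 0.68, Krt18 0.77 and Krt14 0.85. By this measure Krt14 was nearer to Krt8 than to its partner Krt5. That order rests on the MNU wild type, where Krt5 (7.33) and Krt14 (5.47) were both under the added 10. In the other libraries Krt5 over Krt14 varied little, from 4.16 to 4.68. Dsp and Pkp1 encode desmoplakin and plakophilin 1, which tie keratin filaments to desmosomes, and Psmb11 encodes the thymoproteasome subunit of cortical epithelium. Tbata, Prss16 and Pax1, near Krt5, are also genes of the cortical list used below. By this measure genes of the cortical list thus lay near both Krt5 and Krt8.

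Many other epithelial genes were also lower in the MNU wild type, but not all were near 0. Over all genes 14.2% were lower and 7.14% higher in this comparison, against which the counts by list are given. Of 14 measured genes of cortical epithelium 14 were at least 2-fold lower there than in the vehicle wild type, with a median log2 difference of -5.34. Foxn1, the transcription factor that thymic epithelium needs to form, was at 821 in the vehicle library and listed at 0 in the MNU library. Of 8 measured medullary genes 5 were lower and 1, Ly6d, was higher (median -4.21), and Fezf2, a regulator of self-antigen expression, stood at 521 and was listed at 0. Ly6d, named here after its values were seen, is also expressed by lymphocytes and stood at 6478 and 17361. Of 13 genes of desmosomes and hemidesmosomes, the junctions that anchor keratin filaments, 10 were lower and 0 higher (median -4.18). Of 9 genes of epithelial adhesion and surface 5 were lower and 0 higher (median -2.09). Among the genes of these lists that were within 2-fold, named after their values were seen, the adhesion gene Cdh1 stood at 2028 in the vehicle and 2855 in the MNU library, Epcam at 1389 and 784, Spint2 at 9853 and 9446, and the junction gene Jup at 6241 and 7086. Ctsl, a protease gene of the cortical list that was lower, was still at 8431 with MNU, from 42028. Of 7 epithelial transcription factor genes 5 were lower and 1, Grhl2, was higher (median -3.95). The lists overlap, so their counts are not separate. Foxn1 was counted in the cortical and transcription factor lists, and Epcam and Cldn4 in the medullary and adhesion lists. Of the cornification genes only 3 of 19 were measured, and all 3 were lower, among them Sfn, which encodes stratifin, at 2029 without and 545 with MNU.

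Between the wild-type libraries, intermediate filament genes other than keratins were mostly within 2-fold, as were most of all genes. Of 7 measured genes 1 was lower and 1 higher, with a median log2 difference of 0.31. For this and the other counts below, 14.2% of all genes were lower and 7.14% higher. Vim, the vimentin of mesenchymal cells and lymphocytes, stood at 11737 without and 7947 with MNU in wild type. Synm, which encodes the muscle filament protein synemin, stood at 3266 and 36.1, and Nefh, a neurofilament chain, at 316 and 893. Fibroblast genes were higher in the median (1.81, with 4 of 7 higher and 1 lower), and of 11 thymocyte genes 1 was higher and 4 lower (median -0.92). Endothelial genes had a median of -0.39 with 0 of 3 lower or higher. Adipocyte genes had a median of -3.07 with 7 of 8 lower. The part of tissue composition in the keratin differences was not tested.

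Between the vehicle libraries, Ehf was at least 2-fold higher in the knockout and Trp63 and Dsc3 were within 2-fold. The cortical and medullary lists held no gene at least 2-fold higher or lower, against 2.59% of all genes higher and 0.359% lower. With 14 and 8 genes measured in these lists, that is near the share of all genes. Trp63, which encodes p63, the transcription factor of basal epithelial cells, stood at 1567 in the vehicle wild type, 16.6 in the MNU wild type, 2795 in the vehicle knockout and 1924 in the MNU knockout. The ratio of vehicle knockout to vehicle wild type was 1.78. Dsc3, a desmosomal cadherin of basal layers, stood at 947, 2.68, 1755 and 1234 in the same order, a ratio of 1.85 without MNU. Ehf, an ETS-family factor of epithelia, stood at 301, 10.1, 792 and 526, a ratio of 2.63. For each of these 3 genes both knockout libraries were above both wild-type libraries, and with the share subtracted all 3 passed the 2-fold rule between the vehicle libraries, with log2 differences of 1.07 for Trp63, 1.12 for Dsc3 and 1.60 for Ehf.

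By list, epithelial transcription factors had a median log2 difference of 0.60 in the vehicle knockout against the vehicle wild type, with 2 of 7 at least 2-fold higher, Ehf and Grhl2, and 0 lower, against 2.59% of all genes higher and 0.359% lower. Grhl2, named after its values were seen, stood at 329 in the vehicle wild type, 1050 in the MNU wild type, 734 in the vehicle knockout and 327 in the MNU knockout. Genes of desmosomes and hemidesmosomes had a median of 0.19 with 0 of 13 lower or higher. Genes of epithelial adhesion and surface had a median of 0.36 with 0 higher and 1 of 9 lower, the splicing factor gene Esrp2, at 460 in the vehicle knockout against 1240 in the vehicle wild type. The cortical list had a median of -0.05 and the medullary list one of -0.11, with 0 genes lower or higher in either. The median of all genes was -0.0006. With the share subtracted the medians were 0.83, 0.42, 0.52, 0.15 and 0.07 in the order of the lists above, and -0.03 for all genes. Then 3 of 7 transcription factors (Trp63, Grhl2 and Ehf) and 2 of 13 desmosome and hemidesmosome genes (Dsc2 and Dsc3) were higher. The counts of the other 3 lists were the same. The percentage of all genes passing after the subtraction was not computed, so 2.59% is not a matched comparison for these counts.

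**Figure D4:**
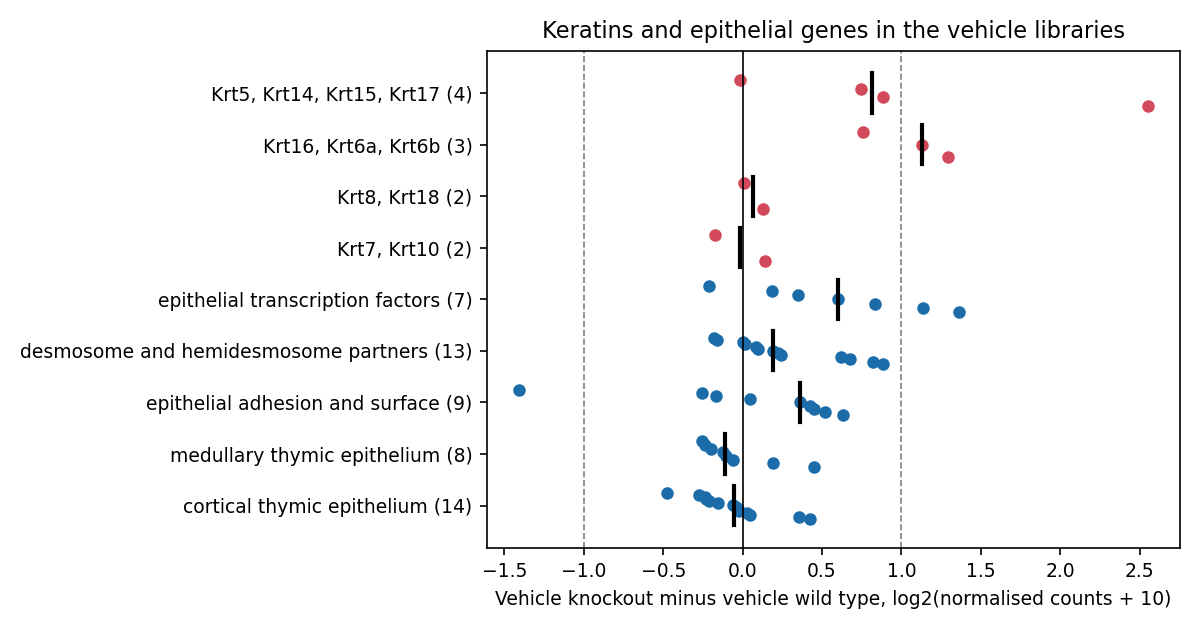
Vehicle knockout minus vehicle wild type in log2(normalised counts + 10) for the keratins (red) and for the genes of 5 epithelial lists (blue), 1 point per gene, with black bars at the median of each row and dashed lines at 2-fold. Krt15 lies at 2.55 and the pair Krt8 and Krt18 at 0.01 and 0.13, and the cortical and medullary rows centre on -0.05 and -0.11.

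Markers of other keratin-bearing epithelia also differed between the libraries. Msln, a mesothelial gene and the only 1 of 8 mesothelial genes measured, stood at 353 in the vehicle wild type, 428 in the MNU wild type, 1126 in the vehicle knockout and 1186 in the MNU knockout. Of 12 airway, parathyroid and neuroendocrine genes 3 were measured. Bpifa1, an airway secretory protein gene, stood at 226, 0 as listed, 80.8 and 3141 in the same order, the parathyroid hormone gene Pth at 257, 0 as listed, 2.22 and 804, and Chga, a neuroendocrine granule gene, at 337, 8.25, 45.8 and 1262. The summed level of these 3 genes was 820, 8.25, 129 and 5207 in the same order. Between the vehicle libraries the log2 differences with the share subtracted were 1.80 for Msln, -1.16 for Bpifa1, -4.40 for Pth and -2.47 for Chga. The part of these cell types in the keratin differences was not tested.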

How the data were processed

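Total RNA of 4 mouse thymus samples was sequenced after TruSeq library preparation, and RNA integrity numbers exceeded 7.5, as the labels' protocols state. The submitters' processing notes list TopHat2 2.0.8b, edgeR and mm9 but not their roles. No source used here gives the counting tool, the annotation or the way values were normalised. The signal deposited by the authors, named normalised counts per the file headers, was not whole and never negative, so no count model or counting interval was used.

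Groups came from the sample titles. For 5 pairwise comparisons, log2(value + 10) was used on the authors' own scaling, for the 10587 of 10598 genes whose mean reached 10. With 1 library per group no test was run, and a gene was counted at 2-fold or more on that scale. Ratios of single genes are of the normalised counts themselves. The keratins, the 13 gene lists and the rules were chosen with earlier results of these data known. Named genes were all keratins, Camk2g, up to 4 genes of each list with the largest MNU difference in wild type, and the 5 genes nearest to Krt5 and to Krt8. Other list genes that are named, among them Ctsl and Dsc2, fall outside this rule. The share of the MNU wild-type profile in the vehicle knockout was the median over genes above 1000 normalised counts. Transcript lengths and shared 50-base windows came from the principal transcripts of GENCODE M21, and start-site sequences from RefSeq, both of GRCm38 and not of mm9, so gene positions are not given beside the values. Calculations used Python 3.11.15 with pandas 2.3.3 and numpy 2.4.6. The 2-fold rule and the subtraction of a share given in advance were tested on simulated data. The estimate of the share itself was not. Alternatives were other pseudocounts, filters, scalings and thresholds, the share subtracted and another control library.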

Additional observations from a re-analysis of the deposited data

Results flagged for a closer look

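The MNU differences of Krt17 and Krt10 had opposite signs in the genotypes, each from 1 library per group, and the difference was not tested. Krt17 was lower with MNU in wild type (log2 difference -8.65) and had a log2 difference of 0.05 in the knockout, a gap of 8.70, knockout minus wild type. For Krt10 the log2 differences were 0.57 in wild type and -0.11 in the knockout, a gap of -0.68. With the share of the MNU wild-type profile subtracted from the vehicle knockout, the knockout values were -0.19 for Krt17 and 0.08 for Krt10, and neither gene had opposite signs.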

How the results depend on the processing

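No paired analysis was possible because each group had 1 library. Of 118 recomputed counts, medians and pair ratios, 108 stayed within 1.5-fold of the values reported and 10 moved further. The 108 include results that could not move. All 8 keratins passed with no filter and at a mean of 100, so changing the filter left their counts and medians as they were. For MNU in wild type the median log2 difference of the 8 keratins was -8.13 with a pseudocount of 2.5 and -6.34 with 40, and for genotype with MNU it was 6.33 with 40. For MNU in knockout the number of keratins lower was 0 at a 4-fold threshold, and it was 0, with 1 higher, against the vehicle wild type. The number higher in the vehicle knockout than in the vehicle wild type was 2 with the share subtracted. The number higher in the MNU knockout than in the vehicle wild type was 1, and it was 0 with a pseudocount of 40 and 0 at 4-fold. The log2 ratio of Krt8 plus Krt18 to Krt5 plus Krt14 in the MNU wild type was 1.75, and 1.02 with a pseudocount of 40. For values near 0 the pseudocount sets the size of the difference. With the vehicle wild type as the control for the MNU knockout, an alternative added for single genes after seeing the data, the log2 differences of the 3 keratins that had been lower turned positive, to 1.25 for Krt15, 0.095 for Krt6a and 0.10 for Krt6b. No called keratin difference changed sign under the other alternatives run. The scalings moved the median of all genes by less than 0.1 in log2. The MNU wild-type values of Krt5, Krt14, Krt15, Krt16 and Krt17 lay under 10 normalised counts, so their ratios carry little precision.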
